A study of Homo sapiens with 6 samples.

Results

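The genes described here encode the calcitonin gene-related peptides (CGRP), the proteins that build their receptor and a protein that couples it inside the cell. They were taken by symbol among the Ensembl identifiers of the deposited gene tables, which gave 7 of 60609 genes: the peptide precursors CALCA and CALCB, the receptor CALCRL, its partners RAMP1, RAMP2 and RAMP3, and the coupling protein CRCP. The set was chosen for the roughly 3-fold higher level of CALCB in knockout cells. Every level of CALCB between the groups, and its call, is therefore a description and not a test. RNA sequencing had been done on HEK293, a human embryonic kidney cell line, in 3 wild-type libraries and 3 libraries of cells in which STAT5B was knocked out with CRISPR/Cas9. STAT5B is a transcription factor of cytokine and growth hormone signalling. Both groups were kept in DMEM with fetal bovine serum. Per the labels, the knockout cells were clones with mutations on both STAT5B alleles, picked by sequencing and protein blot; how many clones were sequenced is not given, so the loss of STAT5B and the history of a clone cannot be told apart. The same protocol names GS knockout clones, and the sample names carry the word Sham, without explanation of either.

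CALCA is best known as the gene from which neurons make CGRP and thyroid C cells make calcitonin, by alternative splicing of a shared transcript. CALCB encodes a second, closely similar CGRP and gives no calcitonin. Both peptides act on CALCRL, a receptor of the class B family that couples to the stimulatory G protein and raises cyclic AMP. CALCRL reaches the cell surface only with a RAMP protein: with RAMP1 it is the CGRP receptor, and with RAMP2 or RAMP3 it binds adrenomedullin. CRCP was named for its part in coupling CGRP receptors and is also a subunit of RNA polymerase III.

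The libraries held 17494958 to 21099813 estimated counts, and 22363 to 23110 genes had a count above 0. Levels are given as CPM (counts scaled to 1000000 on TMM library sizes) for comparisons between groups, and as TPM (transcript abundance, which divides by gene length and sums to 1000000) for comparisons between genes; the SD is over the 3 libraries of a group. edgeR's quasi-likelihood test with Benjamini-Hochberg adjustment covered 15958 genes, of which 1924 (12.1%) were called higher and 1818 (11.4%) lower in knockout cells at an adjusted p under 0.05, so 51.4% of calls were rises. On log2(TPM + 1) the split was 488 higher and 1135 lower, and 30.1% of calls were rises. Whether libraries of 1 genotype are separate cultures is not stated in the labels, so p-values measure a spread that may be technical. STAT5B mRNA stood at 70.1, 64.6 and 69.4 CPM in wild-type cells and at 63.1, 61.8 and 60.5 CPM in knockout cells, a log2 fold change of -0.14 ± 0.047 (SE, edgeR adjusted p = 0.0468); 11 of 15 alternative settings ended that call, among them leaving out any knockout library or wild-type library 1 or 3, with adjusted p from 0.0325 to 0.160 over all 15. The 15 alternatives, here and for the genes that follow, are the other fits of the same question; a test against a change of at least 1.2-fold is given apart. A count over the whole gene does not check a small mutation.

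Of the 7 genes, 5 had enough counts to be tested and 2, CALCA and RAMP3, were listed at 0 in all 6 libraries. CALCB and CALCRL were called higher, beside 12.1% of all genes tested, and nothing is read from that share because CALCB chose the set. None of the 5 was called lower, beside 11.4% of all genes tested; edgeR gave 0 lower without adjustment (p under 0.05), and 0 were called lower by DESeq2 or by limma-voom. RAMP1, RAMP2 and CRCP were not called. The CPM of 2 of the 5 genes, again CALCB and CALCRL, did not overlap between the groups, beside 38.6% of all genes tested.

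CALCB (ENSG00000175868.14) lies on the plus strand of chromosome 11, at 14904997 to 15082342 in GENCODE release 29 on hg38. Its shortest coding transcript there, CALCB-201, has 5 exons between 15073562 and 15078632. The wild-type libraries held 165, 147 and 168 counts of CALCB, and the knockout libraries 484, 553 and 471. On the CPM scale the wild type stood at 9.31, 7.71 and 8.27 and the knockout at 27.5, 26.5 and 26.9. Every knockout library was above every wild-type library, and the knockout libraries lay closer together than the wild-type ones. Averages were 8.43 ± 0.81 and 27.0 ± 0.48 CPM (SD, n = 3 each), a ratio of 3.20. The fitted log2 fold change was 1.68 ± 0.083 (SE), a description of the contrast that chose the gene and not corrected for that choice. In TPM, CALCB stood at 17.8, 14.4 and 15.4 in wild-type cells and 50.0, 47.0 and 49.9 in knockout cells, a ratio of 3.09. Another 12 genes rose at least as much as CALCB on the fitted scale.

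CALCA (ENSG00000110680.12) lies on the minus strand inside the span of the CALCB gene model, at 14966668 to 14972354 of chromosome 11, in the part that CALCB-202 crosses from its start at 14904997. It was listed at 0 counts in all 6 libraries. A count of 0 allows up to 3 counts, which is 0.142 to 0.172 CPM in a single library and 0.0265 CPM over the 113214314 counts of all 6; these limits cover counting error only. With all libraries at 0, no change of CALCA was measurable at this depth. IAPP, the amylin gene of the same family, was also at 0 in all 6 libraries.

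The coding sequences of the CGRP genes are so alike that the assignment of reads between them matters to both values. The 381 coding bases of CALCB-201 align with CALCA-205, a CGRP-type transcript, at 351 identical bases (92.1%). Against CALCA-201, which carries the calcitonin exon, 80.8% of 365 aligned bases are identical. The stretch shown was picked by a search for the coding window of its length, without gaps, with the fewest differences between CALCB-201 and CALCA-205. It codes for most of the mature peptide and the basic site after it, and a short read there has few bases to tell the genes apart. It is 120 bases long in GENCODE release 29 on hg38, at chr11:15077312-15077431 on the plus strand (exon 4 of CALCB-201, coding) and chr11:14967709-14967828 on the minus strand (exon 3 of CALCA-205, coding). Both are written 5′ to 3′ along the transcript, and capitals mark the 4 bases that differ.
CALCB-201: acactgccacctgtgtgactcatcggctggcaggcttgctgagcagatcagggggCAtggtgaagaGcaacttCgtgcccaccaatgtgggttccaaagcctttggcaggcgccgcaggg
CALCA-205: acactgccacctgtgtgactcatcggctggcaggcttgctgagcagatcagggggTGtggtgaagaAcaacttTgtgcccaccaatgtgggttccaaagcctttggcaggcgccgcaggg
The windows are 96.7% identical, and the longest run without a difference is 55 bases. Over whole transcripts, 90 of the 1040 overlapping 31-base words of CALCB-201 (8.65%) also occur in another gene, 90 of them in CALCA and 28 in the pseudogene CALCP. For CALCA-205 the count is 101 of 821 words (12.3%). CALCP, which lies within the CALCB span, was at 0 counts in all 6 libraries too. The sources used here do not say how the deposited counts divided shared reads, so the level of CALCB is to be read with that limit; most of its transcript is not shared.

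CALCRL (ENSG00000064989.13), the receptor itself, lies on the minus strand of chromosome 2 at 187343129 to 187448460. It had the lowest level per length of the tested members, on 19, 23 and 42 counts in the wild-type libraries and 51, 62 and 55 in the knockout libraries. These gave 1.07, 1.21 and 2.07 CPM in wild-type cells and 2.90, 2.98 and 3.14 CPM in knockout cells. The groups did not overlap, and wild-type library 3 stood apart from the other wild-type libraries towards the knockout. A CPM that does not overlap between groups, higher in knockout cells, was found for 19.9% of all genes tested. Averages were 1.45 ± 0.54 and 3.01 ± 0.13 CPM (SD, n = 3 each), and the log2 fold change was 1.04 ± 0.26 (SE, edgeR adjusted p = 0.0108), with a 95% interval of 0.47 to 1.60. Among all genes called higher, 51 had a fitted rise as large as that of CALCRL or larger.

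The call of CALCRL depended on the setting. It ended with offsets from the deposited effective lengths (log2 fold change 1.09, adjusted p = 0.0545), on log2(TPM + 0.1) (0.96 on that scale, adjusted p = 0.0858) and on log2(TPM + 1) (0.50 on that scale, adjusted p = 0.0768), the last tests from limma. In edgeR it also ended without wild-type library 1 (0.87, adjusted p = 0.0561) or wild-type library 2 (0.92, adjusted p = 0.0535), while over all 15 alternatives the adjusted p ran from 9.39e-04 to 0.0858. Without wild-type library 3 the log2 fold change was 1.39. Against a change of at least 1.2-fold, edgeR gave CALCRL an adjusted p of 0.108. In TPM the wild type stood at 0.403, 0.661 and 0.824 and the knockout at 1.63, 1.10 and 1.16. None of the 31-base words of CALCRL-201 or CALCRL-202 occurs in another gene, while 173 of 699 words (24.8%) of CALCRL-208, a transcript with no coding sequence, occur in others. The antisense gene CALCRL-AS1, which spans the locus, was at 0 counts in every library.

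RAMP1 (ENSG00000132329.11) makes CALCRL a CGRP receptor and lies on the plus strand of chromosome 2 at 237858893 to 237912114. Its counts were 131, 121 and 120 in wild-type cells and 101, 100 and 119 in knockout cells, or 7.39, 6.34 and 5.91 CPM against 5.74, 4.80 and 6.80 CPM. Knockout library 3 lay above wild-type libraries 2 and 3, so the groups overlapped. The log2 fold change was -0.18 ± 0.15 (SE, edgeR adjusted p = 0.424), and its 95% interval ran from -0.51 to 0.14, so a fold change of the size seen in CALCB lay outside it.

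RAMP2 (ENSG00000131477.11) turns CALCRL into an adrenomedullin receptor and lies on the plus strand of chromosome 17 at 42758447 to 42763041, 482 kb above the span of STAT5B. It had 20, 30 and 25 counts in wild-type cells and 28, 32 and 29 in knockout cells, or 1.13, 1.57 and 1.23 CPM against 1.59, 1.54 and 1.66 CPM. Wild-type library 2 lay within the knockout range. The log2 fold change was 0.28 ± 0.27 (SE, edgeR adjusted p = 0.497), with a 95% interval of -0.29 to 0.85. RAMP2-AS1 overlaps RAMP2 on the other strand and had 97, 143 and 138 counts in wild-type cells and 133, 140 and 98 in knockout cells (log2 fold change 0.01, edgeR adjusted p = 0.985). Of the 31-base words of RAMP2-205, 25.1% occur in RAMP2-AS1, against 4.53% of those of RAMP2-201; whether reads were counted by strand is not given, so reads of the pair may not be separable there.

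RAMP3 (ENSG00000122679.8), the other adrenomedullin partner, lies on the plus strand of chromosome 7 at 45157791 to 45186302 and was listed at 0 counts in all 6 libraries. The same limits as for CALCA apply, 0.0265 CPM over all libraries. Its transcripts share no 31-base word with another gene.

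CRCP (ENSG00000241258.7) lies on the plus strand of chromosome 7 at 66114604 to 66154568. Its counts were 986, 944 and 1025 in wild-type cells and 1019, 1122 and 988 in knockout cells, or 55.6, 49.5 and 50.4 CPM against 57.9, 53.9 and 56.5 CPM. Knockout library 2 lay below wild-type library 1, and the groups overlapped. The log2 fold change was 0.11 ± 0.055 (SE, edgeR adjusted p = 0.163), with a 95% interval of -0.01 to 0.23. Of the 31-base words of CRCP-201, 17.8% occur in other genes, so part of its reads could be split by the counting.

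**Figure D1:**
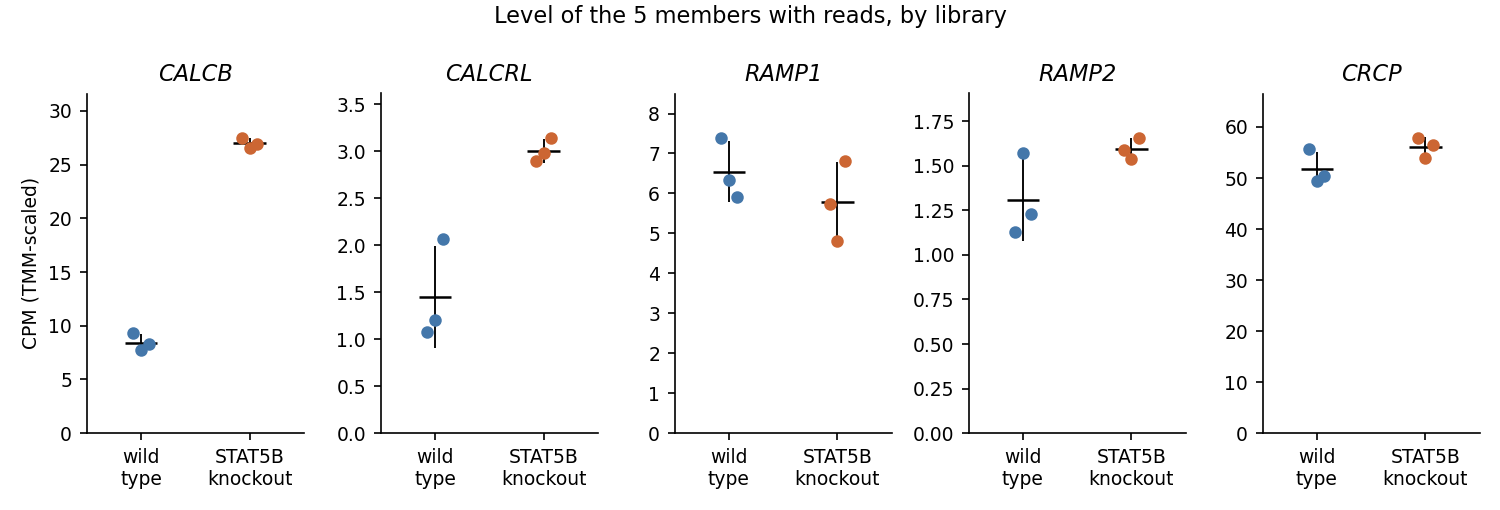
CPM of the 5 tested genes in each library, with points for libraries and bars for the group mean and SD (n = 3). CALCB and CALCRL show groups apart, at 8.43 against 27.0 CPM and 1.45 against 3.01 CPM, while RAMP1, RAMP2 and CRCP overlap.

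Per length, the order of the genes differed between the groups. In the wild type CRCP had the highest TPM, at 32.0 ± 1.87 (SD, n = 3). RAMP1 followed at 19.7 ± 2.78 and CALCB at 15.9 ± 1.77 TPM, and the lowest RAMP1 library (17.76 TPM) lay just below the highest CALCB library (17.81 TPM), so this pair could not be ordered beyond its spread. RAMP2 stood at 4.23 ± 1.45 and CALCRL at 0.629 ± 0.212 TPM. In the knockout CALCB led at 49.0 ± 1.69 TPM, ahead of CRCP at 33.1 ± 1.37, RAMP1 at 16.1 ± 2.68, RAMP2 at 4.42 ± 0.46 and CALCRL at 1.30 ± 0.29 TPM. No neighbours in the knockout order overlapped. CALCB mRNA was thus at 0.521, 0.461 and 0.501 of the CRCP level in the wild-type libraries and at 1.48, 1.49 and 1.47 of it in the knockout libraries.

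The receptor was the scarcest of the detected partners in every library. RAMP1 exceeded CALCRL by a TPM ratio of 56.8, 28.0 and 21.6 in wild-type cells and 9.81, 12.3 and 16.2 in knockout cells. Both partners were detected in excess of CALCRL, and both ratios were lower in each knockout library than in each wild-type library. For RAMP2 the ratio was 7.92, 8.90 and 4.38 in wild-type cells and 3.03, 3.66 and 3.70 in knockout cells. Because CALCRL enters both ratios with few counts, the ratios carry its counting error.

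**Figure D2:**
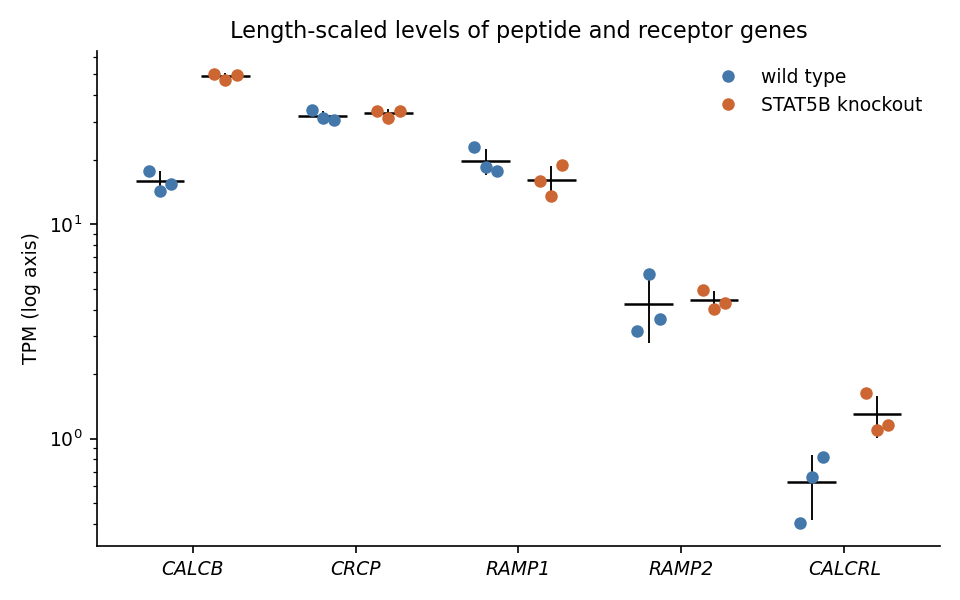
TPM of the 5 detected genes on a log axis, with a point for each wild-type or knockout library, a line for the mean and a vertical bar for the SD (n = 3). CALCB averages 15.9 TPM in the wild type, where its range overlaps that of RAMP1 (19.7 TPM), and is highest in knockout cells (49.0 TPM), and CALCRL is the lowest in both groups.

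The deposited gene length, a mean over the transcripts of a gene that each library weights by their abundance, did not itself choose the genes. TPM divides by gene length, so the length is not fully separate from the levels. For CALCB the length was 1067, 1089 and 1085 bases in wild-type cells and 1054, 1055 and 1053 bases in knockout cells. Every knockout value was shorter than every wild-type value, and the difference of the means was -26.3 bases, or -2.44%. The exact two-sided permutation test gave p = 0.1, the smallest that 3 libraries against 3 allow, and 0.5 after adjustment over the 5 genes compared. Shorter lengths without overlap were found for 8.15% of the 13158 genes whose length varied. The lengths of CALCRL, RAMP1, RAMP2 and CRCP overlapped between the groups, with exact permutation p from 0.3 to 0.6. CALCRL's length was the most variable, from 3703 to 6112 bases between libraries, at 19 to 62 counts. In 4 libraries the CALCB length lay below its shortest transcript in release 29 (1070 bases), and the highest CALCRL length exceeded the longest (5223 bases), so the annotation behind the deposited values differs from release 29 for these genes.

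**Figure D3:**
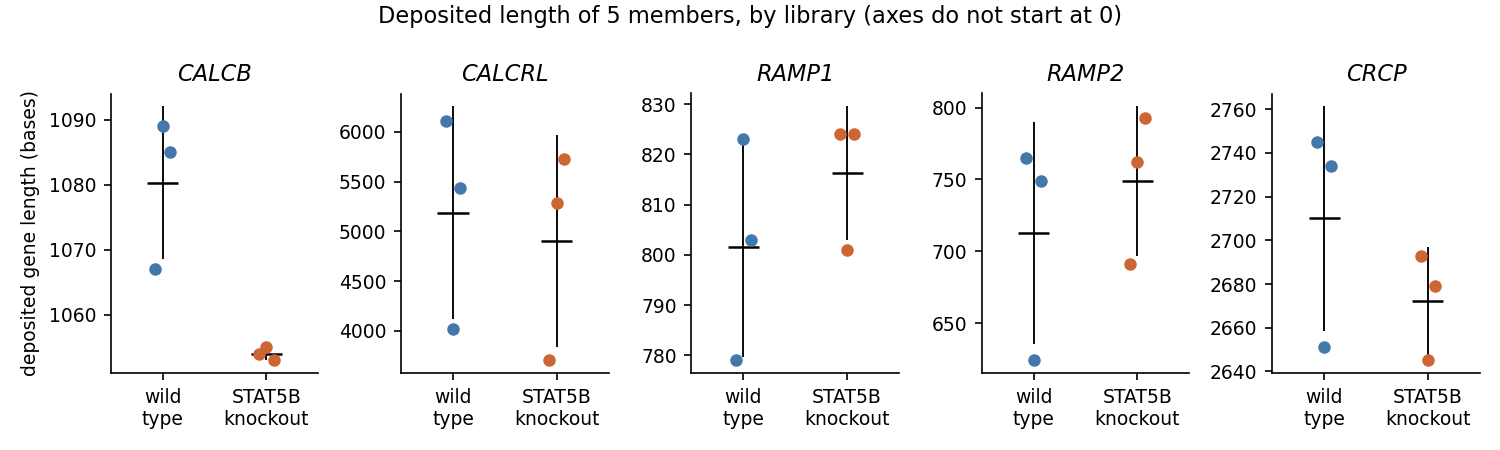
Deposited length in bases of each tested gene, with a point for each library, a line for the mean and a vertical bar for the SD (n = 3); axes do not start at 0. CALCB lies at 1067 to 1089 bases in wild-type cells and 1053 to 1055 bases in knockout cells, and the other genes overlap between groups.

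The other ligands and receptors of the family did not pass the test. ADM, which encodes adrenomedullin, had 251, 221 and 345 counts in wild-type cells and 226, 196 and 224 in knockout cells (log2 fold change -0.30 ± 0.14 SE, edgeR adjusted p = 0.153); without the low-count filter it was called (adjusted p = 0.0291). ADM2, which encodes a related peptide, stood at 1.41 ± 0.17 and 1.91 ± 0.05 CPM (SD, n = 3 each) without overlap, with an edgeR adjusted p of 0.234 for a log2 fold change of 0.43. CALCR, the calcitonin receptor, had 4, 2 and 11 counts in wild-type cells and 3, 4 and 11 in knockout cells and was not tested. Of the 2 tested genes among these 4, edgeR called 0, with 0 at an unadjusted p under 0.05, and neither DESeq2 nor limma-voom called any (0 each).

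A CGRP precursor must be cut, trimmed and amidated before it is active. Of 12 genes for these steps, 9 were tested, 1 rose and 2 fell, beside 12.1% of all genes tested called higher and 11.4% lower, and the median log2 fold change was 0.04, against 0.01 over all genes tested. CPE, which trims basic residues after the cut, rose from 35.9 ± 1.58 to 46.6 ± 2.39 CPM (log2 fold change 0.38 ± 0.058 SE, edgeR adjusted p = 3.37e-04). CPD, a carboxypeptidase of the Golgi network, fell from 165.8 ± 1.98 to 124.9 ± 1.41 CPM (edgeR adjusted p = 2.24e-06), and the convertase PCSK7 fell from 60.0 to 50.4 CPM (edgeR adjusted p = 0.00756). PAM, which makes the C-terminal amide that CGRP carries, was named here for that role after its values were seen; it stood at 62.6 ± 2.05 and 65.5 ± 3.86 CPM and was not called (edgeR adjusted p = 0.404). The convertases of regulated secretion, named likewise, were near 0 and not tested: PCSK1 had 2 counts and PCSK2 19 counts over all 6 libraries. Those of PCSK2 lay mostly in knockout cells, at 0.284, 0.288 and 0.286 CPM against 0.056, 0.052 and 0.049 CPM in wild-type cells. The call of CPE ended on both TPM scales (adjusted p = 0.106 on each, limma; 3.24e-08 to 0.106 over the alternatives), and that of PCSK7 with effective-length offsets (adjusted p = 0.0546; 1.21e-04 to 0.0546 over the alternatives).

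Among 14 genes of dense-core granules, where neuropeptides are stored, 8 were tested and edgeR called 0. At an unadjusted p under 0.05 edgeR gave 1 lower and 0 higher, and DESeq2 and limma-voom each called 0; the list's median log2 fold change was 0.02. The lower gene was SYT7, named after its values were seen, at 8.33 ± 0.37 CPM in wild-type cells and 6.81 ± 0.05 CPM in knockout cells (edgeR adjusted p = 0.0681). Among 28 precursors of other neuropeptides, 13 were at 0 in every library and 5 were tested. GAL, the galanin precursor, was the only called gene and fell from 52.7 ± 3.05 to 44.6 ± 1.44 CPM (edgeR adjusted p = 0.00615); edgeR, DESeq2 and limma-voom each called 0 higher, and edgeR gave 0 higher at an unadjusted p under 0.05.

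CALCRL belongs to the class B receptors for peptide hormones. Of 13 other genes of that family, GLP1R, GLP2R, PTH2R and SCTR were at 0 in all 6 libraries and 5 were tested. edgeR called 0 of the 5 and gave 0 lower and 1 higher at an unadjusted p under 0.05; DESeq2 called 0, and limma-voom called 1 higher. The edgeR gene was ADCYAP1R1, at 8.39 ± 0.72 and 10.2 ± 0.99 CPM (edgeR adjusted p = 0.0820), and the limma-voom gene was CRHR1, both named after their values were seen. CRHR1 stood at 0.903, 0 and 0 CPM in wild-type cells and 0.682, 0.624 and 0.514 CPM in knockout cells (limma-voom adjusted p = 0.0368, edgeR adjusted p = 0.393, and 0.00214 in edgeR without wild-type library 1, the only wild-type library with counts of it). The median log2 fold change of the 5 was 0.28.

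Genes that carry the signal from the receptor or end it moved in both directions. Of 11 genes for G proteins, receptor kinases, arrestins and peptide breakdown, all 11 were tested, 2 rose and 3 fell, beside 12.1% of all genes tested called higher and 11.4% lower, with a median log2 fold change of -0.03. GRK5, a kinase that marks active receptors for shutdown, stood at 7.11 ± 1.29 and 9.48 ± 0.37 CPM (log2 fold change 0.42, edgeR adjusted p = 0.0324), and ARRB2, an arrestin, rose by a log2 fold change of 0.23 (edgeR adjusted p = 0.0108). GNA11 (a G protein subunit), GRK6 (another receptor kinase) and ECE1 (a peptidase that cuts CGRP in endosomes) fell with log2 fold changes of -0.13, -0.14 and -0.18 (edgeR adjusted p = 0.0387, 0.0487 and 0.0232). GNAS, the stimulatory G protein itself, had 755.9 CPM in wild-type cells and 795.2 CPM in knockout cells and was not called (edgeR adjusted p = 0.106). DESeq2 called 1 of these genes higher and 0 lower, and effective-length offsets left none called. The call of GRK5 ended without any library but wild-type library 2 (adjusted p = 0.0562 to 0.130), and that of ARRB2 without knockout library 1 (0.0553) or wild-type library 2 (0.0650). The call of GNA11 ended without any library but knockout library 3 (0.0738 to 0.158). That of GRK6 ended without knockout library 1 or 2 or wild-type library 1 or 3 (0.113 to 0.190), and that of ECE1 without knockout library 2 or wild-type library 1 or 3 (0.0689 to 0.0972).

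Cyclic AMP, the messenger downstream of CALCRL, is made by adenylyl cyclases, read by protein kinase A and destroyed by phosphodiesterases. Of 38 genes of this system 33 were tested, 6 rose and 7 fell, beside 12.1% of all genes tested called higher and 11.4% lower; the median log2 fold change was 0.06. The catalytic subunit PRKACB rose from 68.9 ± 0.81 to 87.2 ± 2.40 CPM (log2 fold change 0.34, edgeR adjusted p = 5.15e-05). PKIA, an inhibitor of that kinase, rose from 13.5 ± 1.08 to 21.8 ± 0.83 CPM (log2 fold change 0.69, edgeR adjusted p = 4.38e-05). The coactivators of CREB moved the other way: EP300 fell from 237.0 ± 10.6 to 188.0 ± 5.93 CPM (edgeR adjusted p = 4.07e-05) and CREBBP from 182.6 ± 9.07 to 156.1 ± 6.98 CPM (edgeR adjusted p = 0.00164). The other rises were PKIB, PDE4D, PDE8A and ATF1, and the other falls ADCY3, PRKAR1A, PRKAR2A, PDE3B and CREB1. With effective-length offsets 2 genes were called in each direction. The calls of PRKACB, PKIA and EP300 ended in 0 of 15 alternatives and that of CREBBP in 3 of 15 (adjusted p up to 0.0949), all of which use length. Those of PDE4D, PDE8A, CREB1, PDE3B and ADCY3 ended in 9, 12, 9, 7 and 2 of 15, each also without wild-type library 1 (edgeR adjusted p = 0.0671, 0.101, 0.108, 0.0677 and 0.0656).

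Of 12 genes known to respond to cyclic AMP, 11 were tested, 3 rose and 1 fell, beside 12.1% of all genes tested called higher and 11.4% lower, with a median log2 fold change of 0.36. On both TPM scales 0 were called higher and 1 lower, and without the low-count filter 6 higher and 1 lower. At an unadjusted p under 0.05 edgeR gave 7 higher and 1 lower. CGA, named after its values were seen, had too few counts to be tested. It stood at 0, 0 and 0.148 CPM in wild-type cells and 3.635, 0.480 and 1.714 CPM in knockout cells. FOS stood at 1.47, 0.839 and 2.17 CPM in wild-type cells and 5.06, 2.02 and 3.60 CPM in knockout cells, where knockout library 2 lay below wild-type library 3 (log2 fold change 1.23 ± 0.36 SE, edgeR adjusted p = 0.0220). RGS2, a brake on G protein signalling, rose from 5.64 ± 0.87 to 8.27 ± 0.46 CPM (edgeR adjusted p = 0.00823), and DUSP1 from 14.3 ± 1.35 to 18.5 ± 3.48 CPM (edgeR adjusted p = 0.0495). SIK1 stood at 3.50, 1.21 and 2.36 CPM in wild-type cells and 1.08, 0.720 and 0.743 CPM in knockout cells (log2 fold change -1.47 ± 0.37 SE, edgeR adjusted p = 0.0113); it has a near-identical copy in the genome, so its value is uncertain. The call of FOS ended in 6 of 15 alternatives, among them without knockout library 1 (adjusted p = 0.131) or wild-type library 1 (0.0671) or 2 (0.0972). That of DUSP1 ended in 10 of 15, among them without knockout library 1 (0.190) or 3 (0.171) or wild-type library 1 (0.122) or 2 (0.179). That of RGS2 ended in 3 of 15, and that of SIK1 in 1 of 14, without wild-type library 1 (adjusted p = 0.0748; 4.17e-05 to 0.0748 over the alternatives).

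USF1 and USF2 are helix-loop-helix factors that bind the enhancer of CALCA in C cells and neurons, where FOXA2 is also at work. Both USF genes were tested and both rose, beside 12.1% of all genes tested: USF1 from 35.9 ± 1.85 to 45.6 ± 2.26 CPM (log2 fold change 0.35, edgeR adjusted p = 7.43e-04) and USF2 with a log2 fold change of 0.19 (edgeR adjusted p = 0.0113). FOXA2 was at 0 in every library, as was CALCA. The call of USF2 ended in 5 of 15 alternatives, among them without knockout library 1 (adjusted p = 0.0555) or wild-type library 2 (0.0617), and that of USF1 in 0 of 15.

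CRCP is also a subunit of RNA polymerase III, and the other 17 subunit genes were all tested. Of these 5 rose and 2 fell, beside 12.1% of all genes tested called higher and 11.4% lower, with a median log2 fold change of 0.10. On both TPM scales 0 were called higher and 2 lower, and with effective-length offsets 1 in each direction. POLR3G, a subunit of the polymerase found in dividing and stem cells, rose from 17.3 ± 0.45 to 24.6 ± 1.49 CPM (log2 fold change 0.51, edgeR adjusted p = 1.77e-04). Its call ended on log2(TPM + 0.1) and log2(TPM + 1) (limma adjusted p = 0.0935 and 0.0984; 1.77e-08 to 0.0984 over the alternatives). POLR2E, which all nuclear polymerases share, fell from 139.2 ± 2.13 to 113.8 ± 7.41 CPM (edgeR adjusted p = 3.02e-04). POLR1D and POLR2K rose by log2 fold changes of 0.17 and 0.24 (edgeR adjusted p = 0.00695 and 0.0127). The other rises were POLR3E and POLR2F, whose calls ended in 8 and 9 of 15 alternatives. POLR3E, POLR2F, POLR1D and POLR2K lost their call without wild-type library 1 (adjusted p = 0.0600, 0.0953, 0.0507 and 0.0613). Against a change of at least 1.2-fold, the genes of all these lists that were called were CPD, PKIA and POLR3G.

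**Figure D4:**
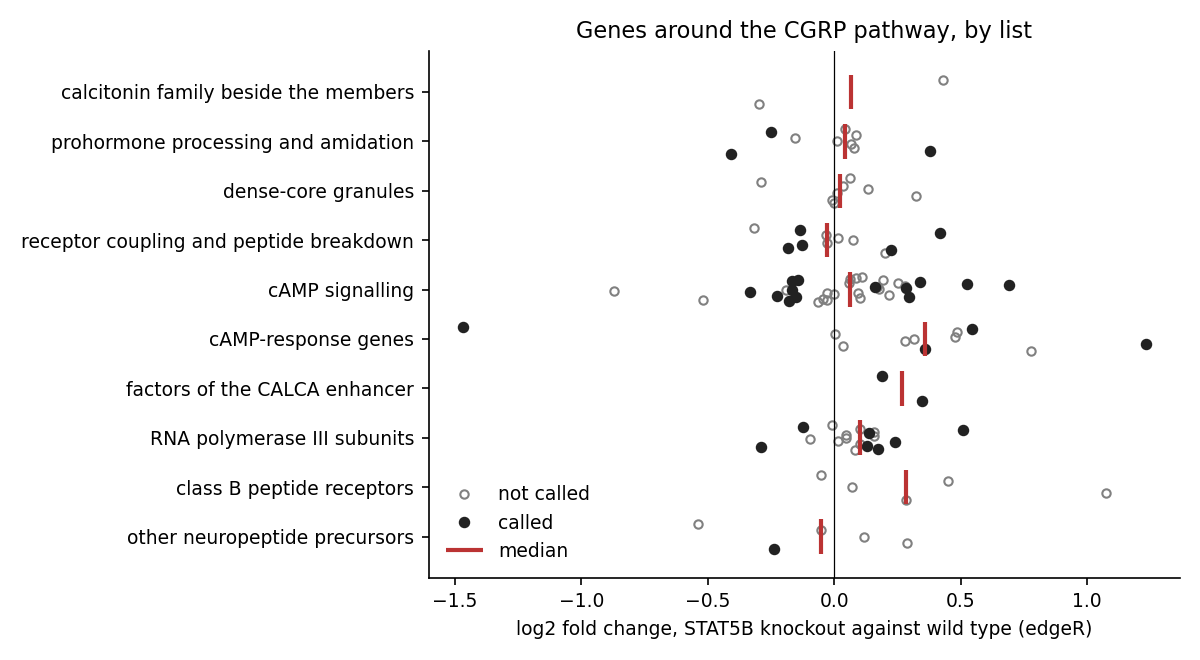
log2 fold change (knockout against wild type, edgeR) of each tested gene in the 10 lists around CGRP; filled points were called at an adjusted p under 0.05, open points were not, and the red line is the list's median. Calls lie on both sides of 0 in 5 lists, and the medians run from -0.05 to 0.36.

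Markers of cell types known for CGRP or its receptor were read in the same libraries. Of 9 markers of neuroendocrine and thyroid C cells, 6 were tested, 3 rose (12.1% of all genes tested were called higher) and edgeR, DESeq2 and limma-voom each called 0 lower, with 0 lower also at an unadjusted p under 0.05; their summed level was 336.7 to 344.6 CPM in wild-type cells and 414.3 to 420.1 CPM in knockout cells. SYP rose from 29.6 to 51.2 CPM and INSM1 from 7.69 to 13.9 CPM, UCHL1, which makes up most of that sum, rose from 253.9 to 303.6 CPM, and CHGA stood at 3.07 and 3.06 CPM. Their part in the higher CALCB level was not tested. Of 13 sensory neuron markers 8 were tested and edgeR called 0, with 1 higher at an unadjusted p under 0.05 and 0 called by DESeq2 or limma-voom; the sum was 91.8 to 92.9 CPM against 91.5 to 101.4 CPM, and SCN10A was at 0. Of 10 endothelial markers, named because CALCRL and RAMP2 are abundant in endothelium, 5 (CDH5, TEK, TIE1, CLDN5 and EMCN) were at 0. The sum of the list was 1.97 to 2.78 CPM in wild-type cells and 2.83 to 3.03 CPM in knockout cells. Only 1 of the 10 was tested. It was ESAM, which makes up most of that sum and was not called (edgeR adjusted p = 0.236). The 6 smooth muscle markers summed to 2.83 to 3.94 CPM in wild-type cells and 4.88 to 6.00 CPM in knockout cells. Of these 6, only 2 were tested and 1 was called higher, beside 12.1% of all genes tested. The called gene was ACTA2, which rose from 1.91 to 3.98 CPM. The other tested gene, TAGLN, was not called (log2 fold change 0.03, edgeR adjusted p = 0.955). All 9 genes of the HEK293 list were tested. Their sum was 1201 to 1238 CPM in wild-type cells and 1030 to 1050 CPM in knockout cells. EYA1 and VIM were called higher and NEFM lower, beside 12.1% of all genes tested called higher and 11.4% lower. NEFM, a neurofilament subunit, fell from 437.9 to 198.5 CPM, more than the sum did, while VIM stood at 591.1 and 640.6 CPM. The call of VIM ended without wild-type library 1 (edgeR adjusted p = 0.0671) or 2 (0.0752).

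The tested neighbours of CALCB had log2 fold changes between -0.17 and 0.19. CALCB was chosen for the size of its change, so setting them beside it is a description with no test. Distances are between the lower coordinates of the gene spans. Of 7 other tested genes within 1 Mb of it, 1 rose and 1 fell, beside 12.1% of all genes tested called higher and 11.4% lower, and their median log2 fold change was -0.04. PSMA1, a proteasome subunit, rose by 0.19 (edgeR adjusted p = 0.00122), and PDE3B, which breaks down cyclic AMP, changed by -0.17 (edgeR adjusted p = 0.0252). CYP2R1, the nearest, stood at 14.1 ± 1.36 and 14.6 ± 0.88 CPM (log2 fold change 0.06, edgeR adjusted p = 0.708). COPB1, RRAS2, SPON1 and ENSG00000256206 were not called, with log2 fold changes of -0.04, 0.07, -0.14 and -0.17. All of these lie on the same side of the lower coordinate of CALCB, 28 to 942 kb away. That coordinate is the start of CALCB-202, while CALCB-201 starts at 15073562, so all of them lie farther from CALCB-201. The call of PSMA1 ended on both TPM scales (limma adjusted p = 0.124 and 0.123; 1.60e-05 to 0.124 over the alternatives). That of PDE3B ended in 7 of 15 alternatives, among them without knockout library 1 (0.0884) or wild-type library 1 (0.0677) or 2 (0.0995).

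Near CALCRL, 5 other genes within 1 Mb were tested and 2 rose, beside 12.1% of all genes tested. TFPI, the tissue factor pathway inhibitor, was named after its values were seen; it lies on the minus strand, as CALCRL does, at 187464230 to 187565760, and 15.8 kb separate the spans of the genes. It rose from 2.84 ± 0.09 to 5.13 ± 0.50 CPM (log2 fold change 0.85 ± 0.16 SE, edgeR adjusted p = 0.00183), and its call held in all 15 alternatives, with adjusted p up to 0.0352. FAM171B rose by 0.19 (edgeR adjusted p = 0.0430), a call that ended without knockout library 2 (0.206) or any wild-type library (0.0722 to 0.133), and ZC3H15, ITGAV and GULP1 were not called. Around RAMP2, 4 of 58 tested genes rose and 14 fell, beside 12.1% of all genes tested called higher and 11.4% lower, with a median log2 fold change of -0.09. That window covers the edited locus: the falls include STAT5B itself, and the rises include ENSG00000280295, which lies within the STAT5B span. Around RAMP1, 0 of 14 rose and 2 fell, beside the same shares, with a median of 0.02. Around CRCP, 3 of 21 rose and 0 fell, beside the same shares, and the median was 0.13. Within 2 Mb of CRCP, 9 of 33 rose and 0 fell, with a median of 0.15.

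**Figure D5:**
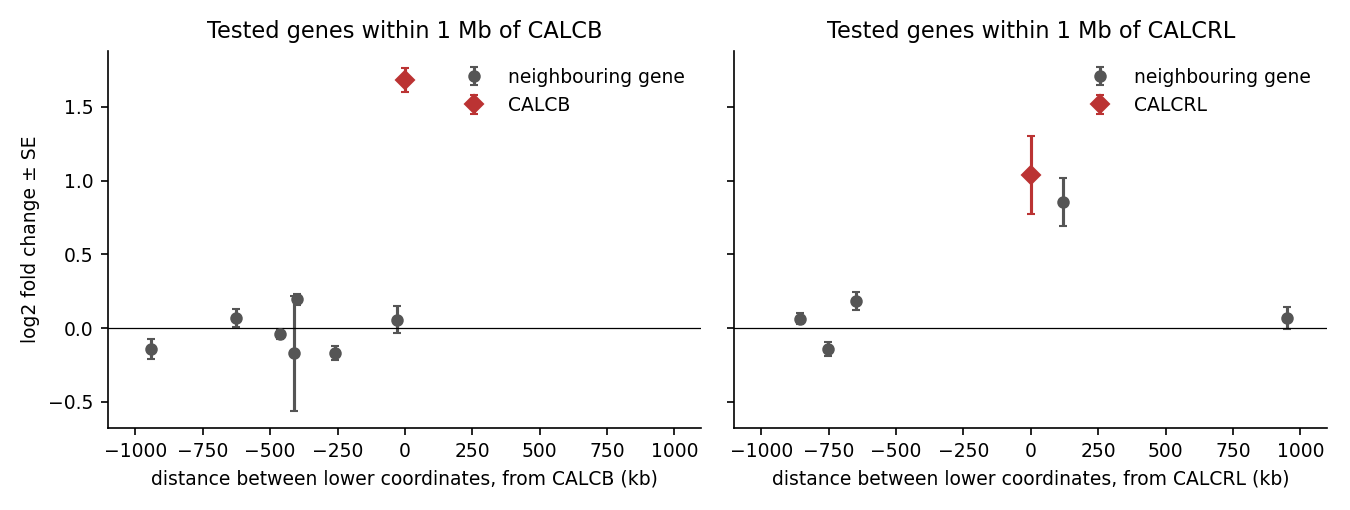
log2 fold change with SE of CALCB and CALCRL (red) and of the other tested genes within 1 Mb, by distance between the lower coordinates of the gene spans in kb. CALCB, at 1.68, was chosen for its rise, and its neighbours lie between -0.17 and 0.19, a description with no test. TFPI, at 121 kb from CALCRL on this scale, is at 0.85.

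Genes whose profile over the 6 libraries lay nearest to that of CALCB were sought among 11272 genes with at least 5 CPM in a group. Each profile was the log2 CPM relative to the gene's own wild-type mean, and likeness was the root mean square distance. OSTN, which encodes the secreted peptide osteocrin, was nearest at 0.17 log2 units (3.03 CPM in wild-type cells and 8.82 in knockout cells, Pearson r = 0.986 over 6 libraries). CFAP298-TCP10L, a readthrough gene, followed at 0.42, ATF3, a stress-induced transcription factor, at 0.47 and NFASC, a neuronal adhesion protein, at 0.47. OSTN and NFASC reach 5 CPM only in knockout cells. Likeness to the profile that chose CALCB fixes that these genes are higher there, so the distances are a description with no test. Ranked by Pearson r instead, the nearest 5 were HAUS1, ANKMY2, LRRC40, ATP2B4 and SLC8A1, and 0 of the genes were shared between the rankings.

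The RefSeq promoter table (250 bases before to 50 after a start) held windows for CALCA, CALCRL and RAMP3. The STAT5 motif TTCNNNGAA, searched on both strands, was in none of these windows and in 2689 of 35116 promoters (7.7%). TGACG, the core of a cyclic AMP response element, occurred once in the CALCA window, at -110 from the start, and in 24.6% of all promoters. The USF motif CACGTG was in none of the 3 windows and in 7.3% of all promoters. A match or its absence here describes letters in these windows only.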

How the data were processed

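mRNA was sequenced from 3 wild-type and 3 STAT5B knockout HEK293 libraries, grouped by the genotype label. The tools were FastQC, fastp, DRAGEN and Picard, with hg38 as the build, per the submitters' processing notes; versions, annotation release and strand setting were not given in the sources used here. Every deposited table gives, per gene, a length, an effective length, a TPM value (summing to 1000000) and an estimated count, per the file headers. Of the deposited estimated counts, 7.12% to 7.64% were not whole, and they were rounded.

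Counts were tested with edgeR 4.0.16 in R 4.3.3 (filterByExpr, minimum count 10, minimum total 15; TMM; quasi-likelihood F test; Benjamini-Hochberg over 15958 genes; threshold 0.05), and the step was tested on simulated data. Intervals are 95%. Another 44651 genes had too few counts. Replicates differed by 2.45 to 7.5 chi-square units per degree of freedom, so none is a copy. Symbols were found for 42005 identifiers. Positions are from GENCODE release 29, where 58457 identifiers had one. Alternatives were DESeq2 1.42.0, voom in limma 3.58.1, RLE scaling, other low-count filters, effective-length offsets, limma on log2(TPM + 1) and log2(TPM + 0.1), a replicate block, a 1.2-fold threshold and leaving out each library.

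The 7 genes and all lists were chosen with earlier results of these data known. Named are these genes, STAT5B, the calcitonin family, up to 4 called genes with the smallest p per list (all where at most 5 were called), the genes near CALCB and the 5 most like it; some genes that this takes are not reported here. Members called or uncalled beyond these were named to complete counts or for their role, after their values were seen.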

Additional observations from a re-analysis of the deposited data

How the results depend on the processing

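Calls over all genes (3742; 1924 higher, 1818 lower) came to 295 (155 and 140) against a 1.2-fold change, 1735 (891 and 844) under offsets for effective length, 1622 (483 and 1139) on log2(TPM + 0.1) and 1623 (488 and 1135) on log2(TPM + 1). CALCB had a log2 fold change of 1.57 on log2(TPM + 1), against 1.62 on log2(TPM + 0.1) and 1.68 in counts. CALCRL kept its direction and lost its call at 1.09 under offsets for effective length, 0.96 on log2(TPM + 0.1) and 0.50 on log2(TPM + 1); the cause was not tested. Over the 10 lists, 19 genes were called higher and 16 lower; DESeq2 called 9 lower, effective-length offsets 6 higher and 6 lower, and both TPM scales 3 higher and 10 lower. Leaving out each library in turn gave 2618 to 3574 calls (1339 to 1789 higher, 1279 to 1785 lower), 12 to 17 list genes higher and 8 to 16 lower, and log2 fold changes of 1.62 to 1.75 for CALCB, 0.87 to 1.39 for CALCRL, -0.32 to -0.06 for RAMP1, 0.18 to 0.43 for RAMP2 and 0.08 to 0.16 for CRCP. No alternative gave a value for CALCA or RAMP3, which have no counts, and DESeq2 gave no adjusted p for RAMP2.

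The replicate block, with the replicate number as a term, gave 1886 higher and 1773 lower, with CALCRL at 1.08 (edgeR adjusted p = 0.00903) and RAMP1, RAMP2 and CRCP not called (0.428, 0.527 and 0.123). It called ADM lower (0.0424). Same-numbered libraries correlated at -0.0727, 0.173 and 0.0295 in their deviations from the group means over 10779 genes, and 2 of 6 libraries correlated best with their own number, so the numbers were not taken to pair samples. At 19 to 62 counts per library, depth limits CALCRL and RAMP2 most.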
